A study of Homo sapiens with 6 samples.

Results

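The genes described here are 45 targets and partners of ATF4, the main transcription factor of the integrated stress response, read by PRO-seq in SH-SY5Y neuroblastoma cells exposed to MPP+. They were taken by name as genes of that response and fall into 4 roles: 15 stress factors, 11 genes of amino acid synthesis, 7 amino acid transporters, and 12 genes of tRNA charging (11 aminoacyl-tRNA synthetases and XPOT). All 45 were found among the 67051 gene identifiers of the count tables, and 42 had enough counts to be tested among 23133 genes.

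PRO-seq counts RNA still held by engaged polymerases in isolated nuclei, so it reads transcription and not the amount of mRNA. MPP+ is the active metabolite of the parkinsonian toxin MPTP and blocks complex I of the respiratory chain. The groups were SH-SY5Y cells given 0.1 mM MPP+ for 0.5 h, the same line given 0.1 mM MPP+ for 24 h, and SH-SY5Y cells with no treatment, with 2 libraries in each group. All were grown in high glucose medium with serum, and the labels name no vehicle for the untreated cells. Nothing in the labels ties the 2 libraries of a group to separate cultures, and p-values then measure a spread between libraries that may be technical.

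In the integrated stress response, kinases that sense mitochondrial, endoplasmic reticulum, amino acid or viral stress phosphorylate the translation factor eIF2. General translation then falls while the ATF4 mRNA, which carries upstream reading frames, is translated more, so ATF4 protein can rise with no change in transcription of its gene. ATF4 pairs with C/EBP family proteins on a composite DNA element, the C/EBP-ATF response element, and is known to raise transcription of genes that make, import and charge amino acids, together with genes that end or sharpen the response.

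The core of that element, TGATGNAA, was searched on both strands from 250 bases before to 50 bases after each RefSeq start (GRCh38.p14). Of the 45 genes, 36 had a listed window, and 14 of these held the core (38.9%), against 1217 of 27305 genes in all (4.46%). A match is a run of letters and not a site shown to be bound. The stretches whose core begins before the start are printed 5′ to 3′ on the strand of the gene, with the core in capitals, because they show which of the genes carry the textbook letters and in which orientation.
ASNS, chr7:97872459-97872486, minus strand, 68 bases before the start: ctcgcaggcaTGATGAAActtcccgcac
CEBPG, chr19:33374061-33374088, plus strand, 42 bases before the start: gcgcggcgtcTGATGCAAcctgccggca
JDP2, chr14:75427996-75428023, plus strand, 16 bases before the start: tagccggggcTGATGCAAcccgtcccgc
SLC1A5, chr19:46784894-46784921, minus strand, 97 bases before the start: aggaagtggcTGATGCAAgctgtccagg
ATF3, chr1:212565206-212565233, plus strand, 191 bases before the start: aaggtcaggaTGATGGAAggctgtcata
CHAC1, chr15:40953252-40953279, plus strand, 209 bases before the start: tcccctgccgTTGCATCActcctgccag
AARS1, chr16:70289676-70289703, minus strand, 187 bases before the start: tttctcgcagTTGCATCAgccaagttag
IARS1, chr9:92293693-92293720, minus strand, 13 bases before the start: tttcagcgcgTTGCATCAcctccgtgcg
MARS1, chr12:57488054-57488081, plus strand, 4 bases before the start: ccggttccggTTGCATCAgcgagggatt
GARS1, chr7:30594835-30594862, plus strand, 33 bases before the start: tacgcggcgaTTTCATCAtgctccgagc

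In ASNS, CEBPG, JDP2, SLC1A5 and ATF3 the core reads along the gene, and in CHAC1, AARS1, IARS1, MARS1 and GARS1 it reads on the other strand. The core of MARS1 begins 4 bases before the start and runs across it. TARS1, SLC3A2, SLC7A1 and NARS1 hold it just after the start. Of the 14 genes, 6 are synthetase genes. The windows of STC2, WARS1 and SLC38A2, whose values are given below, do not hold these letters, which says nothing about elements elsewhere, such as in an intron.
The 250 bases before the start of AARS1 (chr16:70289507-70289756, minus strand) are printed whole because this gene carries the core and is among those with the smallest unadjusted p after 24 h: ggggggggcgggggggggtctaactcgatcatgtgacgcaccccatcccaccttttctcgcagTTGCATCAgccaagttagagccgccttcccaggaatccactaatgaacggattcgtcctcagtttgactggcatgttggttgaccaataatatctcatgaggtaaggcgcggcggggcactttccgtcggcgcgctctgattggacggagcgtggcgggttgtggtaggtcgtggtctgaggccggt

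Assigned counts per library lay between 5983066 and 11707612, and a tested gene of the list had from 54 to 3364 counts in a library (median 606.5). The 13 mRNAs of mitochondrial DNA had a median log2 fold change of -2.2 after 0.5 h, where 13 passed the edgeR test. After 24 h this median was -2.1, and 12 passed. The same test called 0.0735% of all tested genes lower after 0.5 h and 0.0692% after 24 h. This list was chosen with earlier results of these data known, so it is no separate check of the exposure. For the cell line, 6 of 7 adrenergic neuroblast markers passed the filter on low counts, and their summed level over all 7 was 2537 and 2180 CPM after 0.5 h, 2555 and 2004 CPM after 24 h, and 2646 and 2271 CPM in untreated cells. CPM here are counts relative to the library total, scaled by TMM, edgeR's correction for library composition. GATA3 alone had 924 to 1340 CPM in a library, while TH, the enzyme that starts dopamine synthesis, had 2 to 10 counts in a library. Of 7 mesenchymal markers, 6 passed the filter, with sums between 1252 and 1886 CPM over the 6 libraries that came mostly from TWIST1. SNAI2 had 43.7 to 89.7 CPM, FN1 24.7 to 27.9 CPM, CD44 10.5 to 18.8 CPM and YAP1 5.72 to 8.66 CPM, while PRRX1 and VIM were at or below 3.08 CPM.

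ASNS, PCK2 and NUPR1 had no count in any of the 6 libraries, so these 3 targets gave no fold change. A count of 0 allows up to 3 counts, between 2.56e-05% and 5.01e-05% of a library, for counting error only. By GENCODE 29, ASNS, the asparagine synthetase gene (chr7:97852118-97872542), lies wholly within AC079781.5 on the same strand, a gene with 9279 counts over the 6 libraries. PCK2, which makes mitochondrial phosphoenolpyruvate (chr14:24094053-24110598), lies wholly within NRL on the opposite strand, with 2474 counts. Of 1806 protein-coding genes wholly within other genes, 1765 (97.7%) had 0 counts in all libraries, against 502 of 7139 (7.03%) that overlap no other gene. The value of 0 for ASNS and PCK2 is one that these tables give to nearly all genes in such a position, and it is not read here as an absence of transcription. NUPR1, a stress-induced chromatin protein gene (chr16:28532708-28539174), overlaps no other gene of GENCODE 29 and still had 0 counts. Whether it overlaps a gene in the annotation used for counting is not known.

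Among tested genes of the list, DDIT3 had 92.8% of its span inside other genes, ALDH1L2 84%, VLDLR 56.3% and DDIT4 50.4%, and of the 20 genes free of any overlap all but NUPR1 were tested. Whether counting used strand is not given in the sources used here. Of 870 protein-coding genes wholly covered by opposite-strand genes only, 865 (99.4%) had 0 counts in all libraries. DDIT3 overlaps AC022506.1 and MIR616 on its own strand (53.8% of its span), and MARS1 and MBD6 on the opposite strand. Such a gene may thus be counted mostly from the part of its span outside other genes. Per kilobase of span in untreated cells, the tested genes free of overlap ran from 1.02 CPM for EPRS1 to 13.3 CPM for PPP1R15A, 20.6 CPM for CHAC1 and 43.7 CPM for ATF4.

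After 24 h of MPP+, none of the 42 genes passed the edgeR test in either direction, at a Benjamini-Hochberg adjusted p under 0.05 in a fit with no term for replicate number. Over all 23133 tested genes the same test called 0% higher and 0.0692% lower, and DESeq2, which called 0.0562% of all genes higher and 0.0778% lower, also called none of the 42. With a term for replicate number, edgeR called 2 of the 42 higher (STC2 and DDIT4, against 1.3% of all genes) and 5 lower (SLC38A2, SLC7A1, AARS1, WARS1 and EIF4EBP1, against 1.66%). At an unadjusted p under 0.05 there were 3 genes higher (DDIT4, STC2 and CTH, against 4.01% of all genes) and 6 lower (SHMT2, SLC7A1, SLC38A2, AARS1, WARS1 and MARS1, against 4.09%). The log2 fold change was below 0 for 29 of the 42 genes, against 49.6% of all tested genes, and the median was -0.13 against 0.0023. Over the 11731 tested protein-coding genes with a mean above 10 CPM, 52.7% were below 0 and the median was -0.012. Of these 11731 genes, 660 were lower and 460 higher at an edgeR unadjusted p under 0.05. The 24 h libraries lay wholly below the untreated ones for 15 of the 42 genes (18.5% of all genes) and wholly above for 5, namely DDIT4, STC2, CTH, PSPH and EPRS1 (18.8%). Among the 11731 protein-coding genes they lay wholly below for 2579 and wholly above for 2105. The median over the 42 genes was -0.03 without untreated replicate 1 and -0.21 without untreated replicate 2.

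After 0.5 h, again none of the 42 genes passed the edgeR test, against 0% of all genes higher and 0.0735% lower, nor did any in DESeq2 (0% and 0.0865% of all genes) or in edgeR with a term for replicate number (0.0648% and 0.182%). An unadjusted p under 0.05 was reached by PSPH, which was higher (1.05% of all genes), and by SLC38A2, which was lower (1.41%). The median log2 fold change of the 42 genes was 0.029 against 0.0082 over all genes, and 16 were below 0 (38.1%, against 47.9% of all genes). It became -0.1 without 0.5 h replicate 1 and 0.14 without untreated replicate 1. Both 0.5 h libraries were above the untreated ones for 3 genes, PSPH, LARS1 and XPOT (12.9% of all genes), and below them for 2, SHMT2 and SLC38A2 (14.4%).

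The spread between libraries sets what could be seen. Standard errors on the log2 scale ran from 0.09 to 0.39 with a median of 0.15 after 24 h. No unadjusted 95% interval of the 42 genes reached above 0.86 at 24 h or above 0.95 at 0.5 h, so each excluded a 2-fold rise, and at both times only that of SLC7A11 went below -1. Both comparisons use the same untreated libraries, so their values are given side by side and are not independent.

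**Figure D1:**
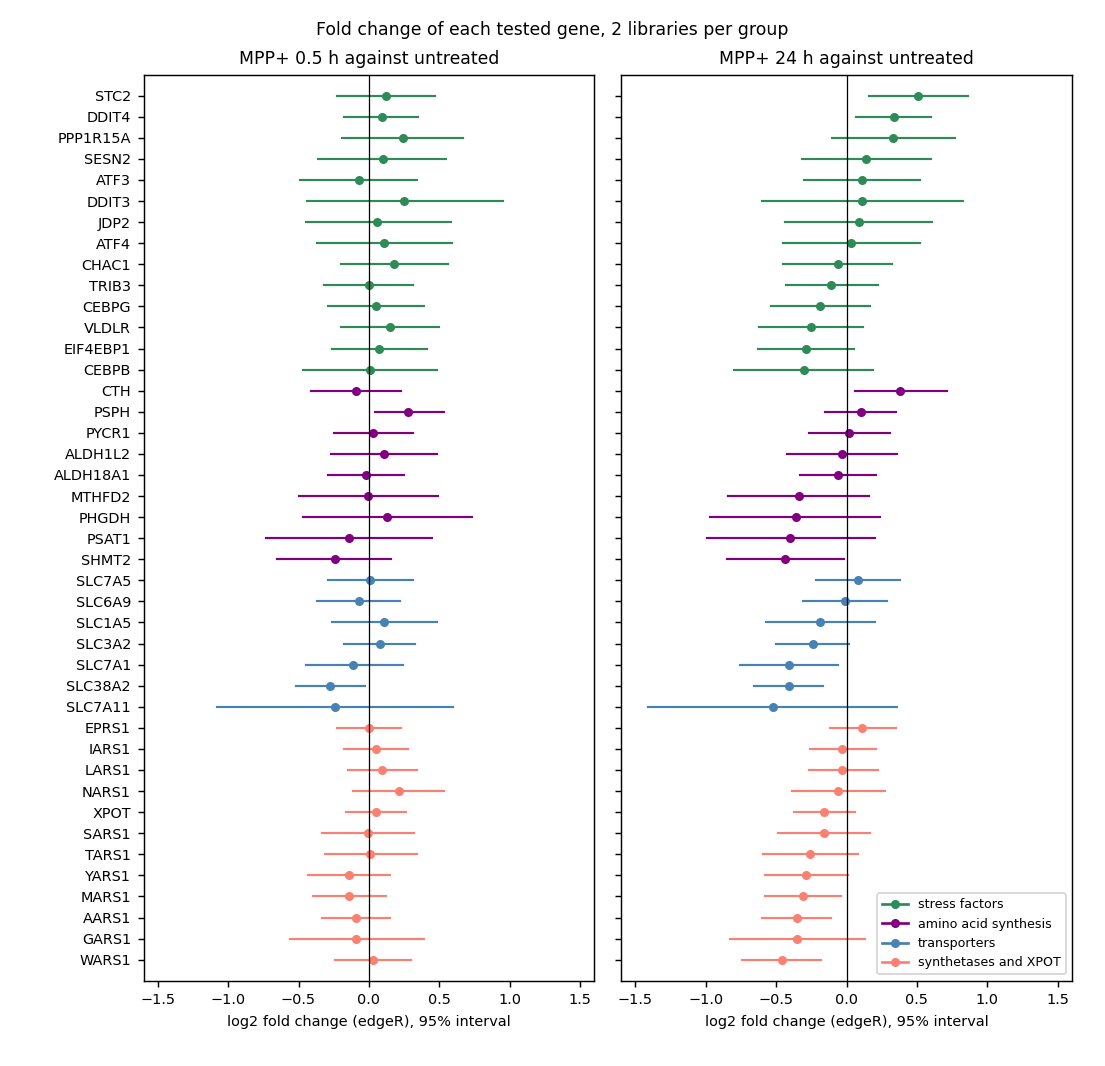
Fold change of each of the 42 tested genes, as log2 fold change (x axis) with its 95% interval from the edgeR fit, for MPP+ 0.5 h (left) and 24 h (right) against untreated cells, with 2 libraries per group. Colours give the 4 roles; at 24 h STC2 is highest at 0.51 and SLC7A11 lowest at -0.52, and no interval reaches above 0.95 in either panel.

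None of the 14 tested stress factors passed the edgeR test at either time. ATF4 itself (chr22:39519695-39522685) had 171 and 110 CPM after 0.5 h, 154 and 112 CPM after 24 h, and 143 and 118 CPM in untreated cells. In each group the first library was the higher one, and the 3 groups overlapped. Its log2 fold change was 0.03 ± 0.22 (SE, n = 2 per group) at 24 h, with a 95% interval of -0.45 to 0.52 and an edgeR adjusted p of 0.984, and 0.11 ± 0.21 at 0.5 h. Without 24 h replicate 1 the 24 h value became -0.22, and without 24 h replicate 2 it became 0.24.

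STC2, which encodes the secreted glycoprotein stanniocalcin 2 (chr5:173314713-173329503), had the highest 24 h fold change of the list. It stood at 96.9 and 72.2 CPM after 0.5 h, at 114 and 109 CPM after 24 h, and at 87.2 and 69.3 CPM in untreated cells. Both 24 h libraries were above all 4 others. The log2 fold change was 0.51 ± 0.16 at 24 h, with an unadjusted p of 0.00871 and an edgeR adjusted p of 0.544, and 0.12 ± 0.16 at 0.5 h. Without a filter on low counts the same test gave STC2 an edgeR adjusted p of 0.0116.

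DDIT4, an inhibitor of mTORC1 signalling also called REDD1 (chr10:72273920-72276036), had 123 and 99.9 CPM after 0.5 h, 136 and 130 CPM after 24 h, and 105 CPM in each untreated library. Its 24 h libraries too lay above all the others, at a log2 fold change of 0.34 ± 0.12 (edgeR adjusted p = 0.574). PPP1R15A, also called GADD34, brings the phosphatase that removes the phosphate from eIF2 (chr19:48872392-48876057). It had 63.0 and 53.0 CPM after 0.5 h, 64.9 and 58.6 CPM after 24 h, and 37.7 and 59.9 CPM in untreated cells. One untreated library was low and the other was level with the treated ones, so the groups overlapped, and the 24 h log2 fold change of 0.33 ± 0.19 (edgeR adjusted p = 0.715) became 0.04 without untreated replicate 1 and 0.71 without untreated replicate 2.

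EIF4EBP1, the translation repressor that binds the cap factor eIF4E (chr8:38030341-38060365), had values of the opposite sign at 24 h. It stood at 155 and 123 CPM after 0.5 h, 115 and 101 CPM after 24 h, and 148 and 117 CPM in untreated cells. Both 24 h libraries were the lowest 2 of the 6, with a log2 fold change of -0.29 ± 0.15 against untreated cells (edgeR adjusted p = 0.683) and -0.36 ± 0.15 against 0.5 h (edgeR adjusted p = 0.768). The value against untreated cells was -0.11 without untreated replicate 1 and -0.46 without untreated replicate 2. CHAC1, which breaks down glutathione (chr15:40952962-40956519), had 89.1 and 75.6 CPM after 0.5 h, 74.5 and 64.9 CPM after 24 h, and 86.5 and 59.8 CPM in untreated cells. Its groups overlapped with those of untreated cells at both times, at 0.18 ± 0.17 for 0.5 h and -0.06 ± 0.17 for 24 h.

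The remaining stress factors had 95% intervals that spanned 0 at 24 h. ATF3 had a 24 h log2 fold change of 0.11 ± 0.18, DDIT3, the CHOP factor, 0.11 ± 0.32, CEBPG, a partner of ATF4, -0.19 ± 0.16, and CEBPB, another C/EBP factor, -0.3 ± 0.22. JDP2, a transcriptional repressor of the same leucine zipper class, was at 0.09 ± 0.23 and TRIB3, the pseudokinase that damps ATF4 activity, at -0.11 ± 0.14. DDIT3 rested on 66 to 232 counts in a library. The leucine sensor gene SESN2 was at 0.14 ± 0.21 and the lipoprotein receptor gene VLDLR at -0.25 ± 0.16. Over the 14 tested stress factors the 24 h median was 0.06, with 8 above and 6 below 0. That median became -0.15 without 24 h replicate 1, -0.09 without untreated replicate 2 and 0.17 without 24 h replicate 2, so leaving out either of 2 libraries turned its sign. At 0.5 h it was 0.093, and it became -0.11 without 0.5 h replicate 1.

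**Figure D2:**
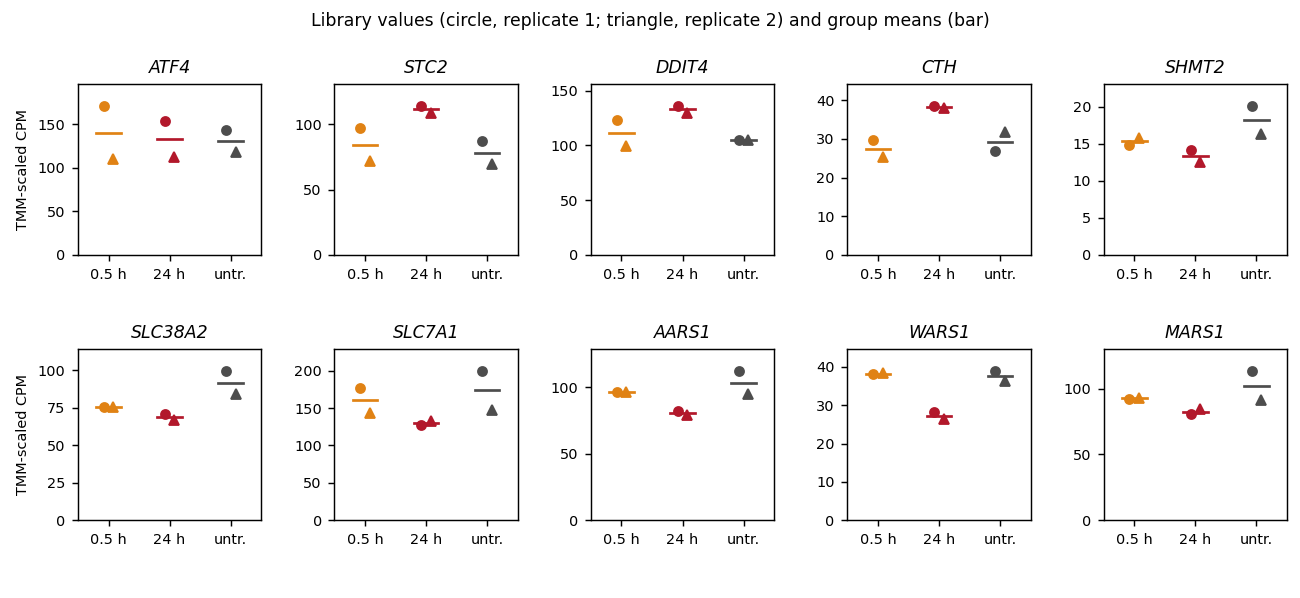
TMM-scaled CPM (y axis, from 0) of 10 genes in each library, by group on the x axis: MPP+ 0.5 h, MPP+ 24 h and untreated (untr.). Circles are replicate 1, triangles replicate 2 and bars the mean of the 2; the 24 h libraries lie above the others for STC2, DDIT4 and CTH, below them for SHMT2, SLC38A2, SLC7A1, AARS1, WARS1 and MARS1, and among them for ATF4.

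Among genes of amino acid synthesis, CTH and SHMT2 were at opposite ends. CTH encodes cystathionine gamma-lyase, the last step in making cysteine (chr1:70411218-70439851). It had 29.6 and 25.4 CPM after 0.5 h, 38.5 and 38.0 CPM after 24 h, and 26.8 and 31.7 CPM in untreated cells. The 24 h libraries were close to each other and above all 4 others, at a log2 fold change of 0.38 ± 0.14 against untreated cells (edgeR adjusted p = 0.595) and 0.47 ± 0.14 against 0.5 h (edgeR adjusted p = 0.754). SHMT2, the mitochondrial enzyme that moves a one-carbon unit from serine to folate (chr12:57229327-57234935), had 14.9 and 15.8 CPM after 0.5 h, 14.2 and 12.5 CPM after 24 h, and 20.1 and 16.3 CPM in untreated cells. All 4 treated libraries were below both untreated ones, with -0.24 ± 0.18 at 0.5 h and -0.44 ± 0.19 at 24 h (edgeR adjusted p = 0.605), or -0.28 without untreated replicate 1.

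For 3 genes around serine, PSAT1, MTHFD2 and PHGDH, the 0.5 h and untreated replicates lay further apart than the groups did. The 24 h replicates were closer, at log2 differences of 0.24, 0.26 and 0.2. PSAT1, the transaminase step of serine synthesis (chr9:78297143-78330093), had 187 and 130 CPM after 0.5 h, 144 and 122 CPM after 24 h, and 229 and 122 CPM in untreated cells. Its 24 h log2 fold change of -0.4 ± 0.27 (edgeR adjusted p = 0.753) became 0.12 without untreated replicate 1. MTHFD2, the next enzyme of mitochondrial one-carbon metabolism (chr2:74198562-74217565), had 155 and 116 CPM after 0.5 h, 117 and 97.6 CPM after 24 h, and 169 and 103 CPM in untreated cells. Here too the 24 h value of -0.34 ± 0.22 (edgeR adjusted p = 0.752) turned to 0.06 without that library. PHGDH, which starts the serine pathway, ran from 153 to 296 CPM over the 6 libraries and gave -0.36 ± 0.27 at 24 h, with overlap.

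PSPH, the last enzyme of serine synthesis (chr7:56011051-56051604), had 119 and 100 CPM after 0.5 h, 94.4 and 98.9 CPM after 24 h, and 88.3 and 92.3 CPM in untreated cells. Treated libraries were all above the untreated ones, most so at 0.5 h, with 0.28 ± 0.11 (unadjusted p = 0.0289, edgeR adjusted p = 1) and 0.1 ± 0.11 at 24 h. The proline genes ALDH18A1 and PYCR1 gave -0.06 ± 0.12 and 0.02 ± 0.13 at 24 h, and the folate enzyme gene ALDH1L2 gave -0.03 ± 0.17. Over the 9 tested genes the 24 h median was -0.058, with 3 above and 6 below 0. It was 0.01 without untreated replicate 1, and the 0.5 h median was -0.0058.

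Of the 7 amino acid transporters, 6 had a 24 h log2 fold change below 0, with a median of -0.24 that stood at -0.1 without untreated replicate 1 and -0.41 without untreated replicate 2. None passed the edgeR test. SLC38A2, the neutral amino acid carrier SNAT2 (chr12:46358189-46372867), had the smallest p of the list at 24 h against untreated cells. It had 75.7 and 75.8 CPM after 0.5 h, 70.8 and 66.7 CPM after 24 h, and 99.3 and 84.4 CPM in untreated cells. All 4 treated libraries were below both untreated libraries. The log2 fold change was -0.28 ± 0.11 at 0.5 h (unadjusted p = 0.0291) and -0.41 ± 0.11 at 24 h (unadjusted p = 0.00399, edgeR adjusted p = 0.498).

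SLC7A1, the cationic amino acid carrier CAT1 (chr13:29509410-29595688), had 177 and 144 CPM after 0.5 h, 127 and 133 CPM after 24 h, and 199 and 148 CPM in untreated cells. Its 24 h libraries were the lowest 2, at -0.41 ± 0.16 (edgeR adjusted p = 0.595), while the 0.5 h value was -0.11 ± 0.15. The log2 fold change at 24 h was -0.19 without untreated replicate 1 and -0.62 without untreated replicate 2. SLC3A2, the heavy chain that several amino acid exchangers share (chr11:62856102-62888875), had 150 and 135 CPM after 0.5 h, 115 CPM in each 24 h library, and 146 and 125 CPM in untreated cells. Both 24 h libraries were below all others, at -0.24 ± 0.11 against untreated cells (edgeR adjusted p = 0.64) and -0.32 ± 0.11 against 0.5 h. Without untreated replicate 1 the first of these was -0.12, and without untreated replicate 2 it was -0.36.

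SLC7A11, the light chain of the cystine and glutamate exchanger (chr4:138164097-138242349), had the widest interval of the list. It had 14.3 and 6.32 CPM after 0.5 h, 8.41 and 8.77 CPM after 24 h, and 16.0 and 8.91 CPM in untreated cells, from 54 to 162 counts in a library. Replicate 1 was the high library in the 0.5 h and untreated groups. The 24 h log2 fold change of -0.52 ± 0.39 (edgeR adjusted p = 0.784) was -0.06 without untreated replicate 1 and -0.91 without untreated replicate 2. SLC7A5, the large neutral amino acid carrier LAT1, gave 0.08 ± 0.13 at 24 h, the glutamine carrier gene SLC1A5 -0.19 ± 0.17 and the glycine carrier gene SLC6A9 -0.01 ± 0.13, all with overlapping groups.

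**Figure D3:**
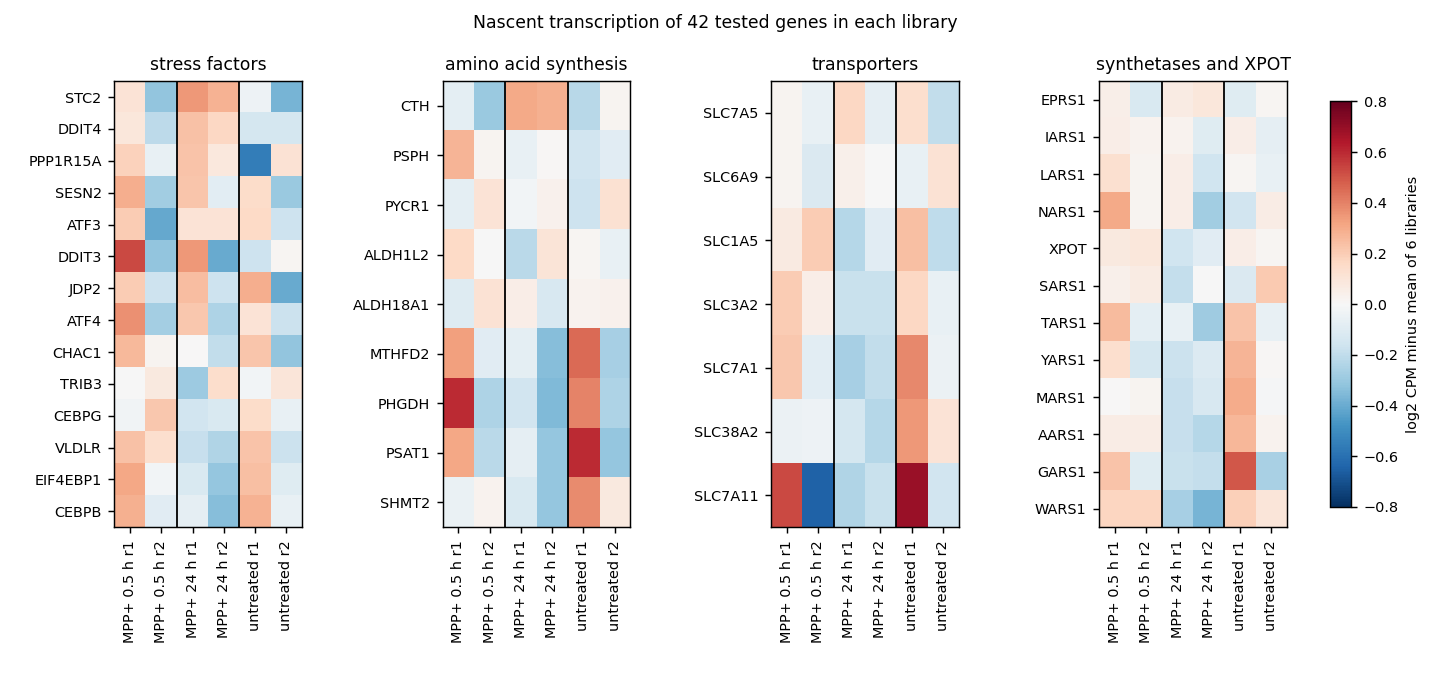
Log2 CPM of each of the 42 tested genes in each library minus the mean of that gene over the 6 libraries (colour, red above and blue below the mean), in 4 panels by role, with genes ordered by their 24 h fold change and libraries from MPP+ 0.5 h through 24 h to untreated (r1 and r2, replicate numbers). In the synthetase panel the 24 h columns are mostly blue, and in the stress factor panel columns of the same replicate number resemble each other.

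Synthetases attach amino acids to their tRNAs, and XPOT carries tRNAs out of the nucleus. Of these 12 genes, 11 had a 24 h log2 fold change below 0 and 0 passed the edgeR test. The median was -0.21, against 0.0023 over all tested genes and 0.0091 for the same 12 genes at 0.5 h. The 24 h libraries lay wholly below the untreated ones for 6 of them (AARS1, WARS1, MARS1, TARS1, YARS1 and XPOT), against 18.5% of all tested genes. They lay wholly above for EPRS1, against 18.8% of all tested genes. Among 11731 tested protein-coding genes with a mean above 10 CPM they lay wholly below for 2579 and wholly above for 2105. Leaving out 1 library at a time kept this median between -0.3 and -0.14.

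WARS1, the tryptophan enzyme (chr14:100333788-100376805), had 38.2 and 38.3 CPM after 0.5 h, 28.3 and 26.3 CPM after 24 h, and 38.8 and 36.4 CPM in untreated cells. Both 24 h values stood apart from the other 4, which were level with each other. Its log2 fold change was -0.46 ± 0.12 against untreated cells (unadjusted p = 0.00489, edgeR adjusted p = 0.522) and -0.48 ± 0.12 against 0.5 h (edgeR adjusted p = 0.754), and 48.7% of its span lies inside other genes. AARS1, the alanine enzyme (chr16:70252295-70289543), had 96.8 CPM in each 0.5 h library, 81.9 and 79.5 CPM after 24 h, and 112 and 94.9 CPM in untreated cells. Again both 24 h libraries were the lowest, at -0.35 ± 0.11 (unadjusted p = 0.00894, edgeR adjusted p = 0.544), or -0.23 without untreated replicate 1, with -0.09 ± 0.11 at 0.5 h.

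MARS1, the methionine enzyme (chr12:57475445-57517569), had 92.0 and 93.0 CPM after 0.5 h, 80.7 and 84.1 CPM after 24 h, and 113 and 91.2 CPM in untreated cells. After 24 h both were below the other 4, at -0.31 ± 0.12 (edgeR adjusted p = 0.595), and this value was -0.15 without untreated replicate 1 and -0.47 without untreated replicate 2. YARS1, the tyrosine enzyme (chr1:32775237-32818153), had 67.6 and 55.9 CPM after 0.5 h, 54.6 and 57.0 CPM after 24 h, and 74.2 and 62.0 CPM in untreated cells. It overlapped between 24 h and 0.5 h but not between 24 h and untreated cells, where it gave -0.29 ± 0.13 (edgeR adjusted p = 0.625), or -0.16 without untreated replicate 1. NARS1, the asparagine enzyme (chr18:57600656-57622213), had 98.0 and 80.5 CPM after 0.5 h, 82.3 and 65.4 CPM after 24 h, and 71.5 and 82.8 CPM in untreated cells. Its groups overlapped, at 0.21 ± 0.14 for 0.5 h (edgeR adjusted p = 1) and -0.06 ± 0.15 for 24 h.

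The remaining genes of this group had smaller or less certain values at 24 h. GARS1 was at -0.35 ± 0.21, with 140 and 82.6 CPM in its untreated libraries, TARS1 at -0.26 ± 0.15, SARS1 at -0.16 ± 0.15 and XPOT at -0.16 ± 0.09. IARS1 and LARS1 were each at -0.03 ± 0.11. EPRS1, the fused glutamate and proline enzyme, was at 0.11 ± 0.1, with 84.7 and 75.6 CPM after 0.5 h, 85.8 and 87.5 CPM after 24 h, and 76.8 and 83.1 CPM in untreated cells.

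Synthetase genes outside the list had medians of the same sign. Over 12 other genes for cytosolic synthetases and their scaffold proteins the 24 h median was -0.093, with 9 below 0, and over 13 tested genes for mitochondrial synthetases it was -0.14, with 9 below 0. None of either set passed the edgeR test. Only EEF1E1, a scaffold protein gene of the synthetase complex, had a log2 fold change beyond 1 in size, with 24 and 11 counts after 0.5 h, 3 in each 24 h library, and 19 and 22 in untreated cells. Its value was -2.65 ± 0.5 at 24 h (edgeR adjusted p = 0.252), on few counts and with 99.8% of its span inside other genes. With a term for replicate number its edgeR adjusted p was 0.00594. It was the only gene of either set so called, in a fit that called 1.3% of all genes higher and 1.66% lower. The scaffold gene AIMP2 had 83.0 and 88.8 CPM after 0.5 h, 89.6 and 90.4 CPM after 24 h, and 74.3 and 79.5 CPM in untreated cells, and its treated libraries were all above the untreated ones (0.23 ± 0.1 at 24 h, edgeR adjusted p = 0.611).

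For mitochondrial charging, HARS2 had 18.8 and 22.8 CPM after 0.5 h, 14.1 and 17.9 CPM after 24 h, and 20.5 and 23.5 CPM in untreated cells, at -0.47 ± 0.19 for 24 h (edgeR adjusted p = 0.602). LARS2 had 97.6 and 96.9 CPM after 0.5 h, 94.3 and 93.3 CPM after 24 h, and 109 and 103 CPM in untreated cells, at -0.18 ± 0.09 (edgeR adjusted p = 0.687). Both had 24 h libraries below the untreated ones. AARS2 and MARS2, each wholly inside other genes, were at 0 in all libraries, and so was VARS2, with 32.2% of its span inside other genes. SARS2, with 99.1% of its span inside other genes, was under the filter on low counts. As for ASNS and PCK2, these low values of AARS2, MARS2 and SARS2 are not read here as an absence of transcription.

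Upstream of ATF4, 12 of 14 genes for eIF2 kinases, eIF2, its exchange factor eIF2B and the mitochondrial relay were tested, and 0 passed the edgeR test, with a 24 h median of -0.1. DELE1, which carries a mitochondrial stress signal to the kinase HRI, had 68.2 and 70.6 CPM after 0.5 h, 55.2 and 57.1 CPM after 24 h, and 74.9 and 69.1 CPM in untreated cells. Its 24 h libraries were below all others, at -0.36 ± 0.1 (unadjusted p = 0.00555, edgeR adjusted p = 0.528). With a term for replicate number its edgeR adjusted p was 0.0351, in a fit that called 1.66% of all genes lower. GCN1, the activator of the amino acid sensing kinase GCN2, had 195 and 188 CPM after 0.5 h, 191 and 168 CPM after 24 h, and 224 and 192 CPM in untreated cells, at -0.21 ± 0.12 (edgeR adjusted p = 0.71). OMA1, the protease ahead of DELE1, and PPP1R15B had 0 counts, each wholly inside other genes.

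Of 12 further genes known as ATF4 targets, 10 were tested and none passed the edgeR test, with a 24 h median of -0.044. GPT2, the mitochondrial alanine transaminase, had 109 and 102 CPM after 0.5 h, 77.9 and 89.1 CPM after 24 h, and 120 and 98.4 CPM in untreated cells, at -0.38 ± 0.12 (edgeR adjusted p = 0.557). SLC43A1, a neutral amino acid carrier gene, had 36.7 and 29.8 CPM after 0.5 h, 40.3 and 45.1 CPM after 24 h, and 32.3 and 35.1 CPM in untreated cells, at 0.34 ± 0.14 (edgeR adjusted p = 0.604). The 24 h libraries did not overlap the untreated ones for either gene, below them for GPT2 and above them for SLC43A1. GDF15, a stress-induced secreted cytokine gene named here after its values were seen, had 11.2 and 14.5 CPM after 0.5 h, 17.3 and 20 CPM after 24 h, and 7.36 and 15.8 CPM in untreated cells. Both 24 h libraries were above all 4 others, at 0.66 ± 0.31 against untreated cells (edgeR adjusted p = 0.635), while the untreated libraries stood apart from each other. With a term for replicate number, edgeR called 1 of the 10 higher (GDF15, adjusted p = 0.0384, against 1.3% of all genes) and 1 lower (GPT2, adjusted p = 0.0262, against 1.66%).

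**Figure D4:**
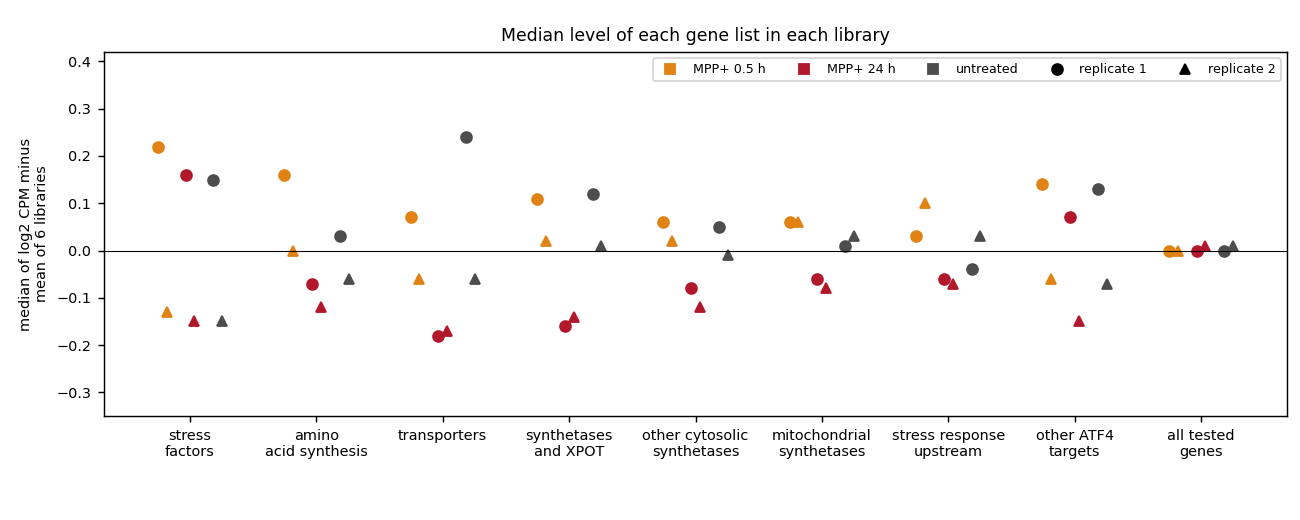
Median over each gene list of log2 CPM minus the gene's mean over the 6 libraries (y axis), for MPP+ 0.5 h, MPP+ 24 h and untreated libraries from left to right in each list, with circles for replicate 1 and triangles for replicate 2. The synthetase medians are -0.16 and -0.14 at 24 h against 0.12 and 0.01 in untreated cells, the stress factor medians split by replicate number, and over all tested genes every library is at 0 or 0.01.

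Between 24 h and 0.5 h, a comparison that reuses the treated libraries of the other two, none of the 42 genes passed the edgeR test, and over all genes 0% were called in either direction, also by DESeq2. With a term for replicate number, edgeR called 1 of the 42 higher (STC2, against 0.501% of all genes) and 4 lower (EIF4EBP1, PHGDH, SLC3A2 and WARS1, against 1.28%). At an unadjusted p under 0.05 there were 2 genes higher, STC2 and CTH (2.8% of all genes), and 5 lower, EIF4EBP1, VLDLR, SLC3A2, AARS1 and WARS1 (3.62%). The 24 h libraries lay wholly below the 0.5 h ones for 17 of the 42 genes (19% of all genes) and wholly above for 4, DDIT4, STC2, CTH and EPRS1 (19.4%). The median log2 fold change was -0.16 against 0.0029 over all genes, and 32 genes were below 0 (49.5% of all genes). Over the 11731 tested protein-coding genes with a mean above 10 CPM, 55% were below 0 and the median was -0.021. Of these 11731 genes, 610 were lower and 310 higher at an edgeR unadjusted p under 0.05. The 24 h libraries lay wholly below the 0.5 h ones for 2796 of them and wholly above for 2121. By role the medians were -0.19 for synthetases, -0.29 for transporters, -0.19 for amino acid synthesis and -0.091 for stress factors.

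As shares of assigned counts, the 12 synthetase and XPOT genes took 0.116% and 0.11% after 0.5 h, 0.103% and 0.102% after 24 h, and 0.119% and 0.11% in untreated cells. The exact Clopper-Pearson 95% interval of each 24 h library ended at 0.105%, below the lowest bound of 0.108% among the other 4, for counting error only. All 45 genes together took 0.371% and 0.316% after 0.5 h, 0.324% and 0.315% after 24 h, and 0.371% and 0.317% in untreated cells, and these groups overlapped. All values are relative to the library total, so less RNA per cell and fewer transcribing cells cannot be told apart.

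Fold changes were also set beside the core letters shown above. At 24 h the 13 tested genes that hold TGATGNAA had a median log2 fold change of -0.19, with 11 below 0, and the 21 tested genes with a window but without it had -0.06, with 12 below 0. At 0.5 h these medians were 0.05 and 0.01. The 13 genes include 6 synthetase genes, so the letters and the role are not separate. Tested genes with no listed window are in neither set. Their 24 h values were -0.52 (SLC7A11), -0.44 (SHMT2), -0.29 (EIF4EBP1 and YARS1), -0.03 (LARS1 and ALDH1L2), 0.02 (PYCR1) and 0.1 (PSPH).

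Libraries also differed along their replicate number. Replicate 1 was above replicate 2 in all 3 groups for 17 of the 42 genes, against 21.7% of all tested genes, and below it in all 3 for TRIB3, PYCR1 and SARS1, against 22.3%. Among the stress factors 8 of 14 were above, ATF4 among them. The mean difference, as log2 CPM, was 0.64 for SLC7A11, 0.56 for PHGDH, 0.55 for PSAT1, 0.49 for JDP2, 0.47 for MTHFD2 and 0.46 for ATF4 and DDIT3. For all 7 of these genes this exceeded the size of the 24 h fold change. Of 6 tested adrenergic markers, 4 were also above in all 3 groups. What the replicate numbers stand for is not given in the labels.

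**Figure D5:**
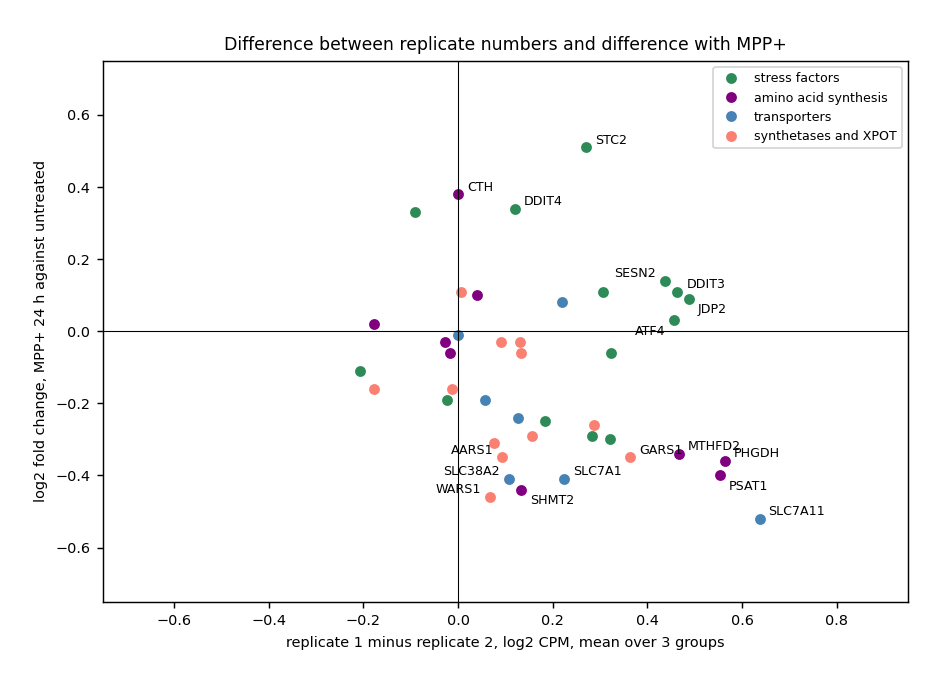
For each of the 42 tested genes, the difference of replicate 1 minus replicate 2 in log2 CPM, averaged over the 3 groups (x axis), and the log2 fold change of MPP+ 24 h against untreated cells (y axis), coloured by role. SLC7A11, PHGDH, PSAT1 and MTHFD2 lie far to the right and below 0, STC2 and DDIT4 lie above 0, and WARS1, AARS1 and SLC38A2 lie below 0 with replicate differences of at most 0.11.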

How the data were processed

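PRO-seq counts of 6 SH-SY5Y libraries were used. The submitters' processing notes name featureCounts 2.0.1, Bowtie2 2.4.2, build hg38, DESeq2 2.11.40.6 and cutadapt 1.16.5, with no roles given. Strand, feature and multimapping settings of the counting were not given in the sources used here. Those deposited tables hold raw counts per gene, without normalization. Per the file headers, each deposited table of differential genes gives a mean signal, a log2 fold change, a Wald score and p-values, and it lists 0 of the 45 genes.

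Identifiers were named from a gene name table (42061) or GENCODE 29 (16489), leaving 8501 unnamed. Genes passing filterByExpr (23133) were fitted on all 6 libraries with edgeR 4.0.16 in R 4.3.3 (TMM, quasi-likelihood F test, two-sided, 1 coefficient per group, 3 residual degrees of freedom), adjusted by Benjamini-Hochberg over all of them at 0.05. The pipeline was tested on simulated data. DESeq2 1.42.0, other scalings and filters, the compared groups alone, a replicate term and leaving out each library were alternatives. Replicates differed beyond counting error (chi-square per degree of freedom 8.24 at 0.5 h, 3.85 at 24 h and 5.18 untreated). PCR copies are not separated from molecules, so Clopper-Pearson intervals and floors cover counting error only.

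The genes and lists were chosen with earlier results of these data known. ATF4 and, in each role, the 4 genes of smallest p at 24 h and the 2 at 0.5 h are given in full, with 2 genes from each further list.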

Additional observations from a re-analysis of the deposited data

Results flagged for a closer look

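XPOT, the exporter of tRNAs from the nucleus, was flagged because its libraries lay on opposite sides of the untreated ones at the 2 times. It had 116 and 117 CPM after 0.5 h, 98.3 and 103 CPM after 24 h, and 114 and 111 CPM in untreated cells. Both 0.5 h libraries were above both untreated ones, as for 12.9% of all tested genes. Both 24 h libraries were below both untreated ones, as for 18.5% of all tested genes. How many of all tested genes meet both conditions was not counted, and both use the same untreated libraries. Against untreated cells the log2 fold change was 0.05 ± 0.09 at 0.5 h and -0.16 ± 0.09 at 24 h. The log2 fold change of 24 h against 0.5 h was -0.21 ± 0.09 (SE, n = 2 per group), with an unadjusted p of 0.0503 and an edgeR adjusted p of 0.768, so the difference did not pass the test.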

How the results depend on the processing

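RLE or upper quartile scaling, a mean of at least 50 counts, the compared groups alone and DESeq2 left all counts of called list genes at 0; DESeq2 called 13 genes higher at 24 h against 0 in edgeR. Without a filter on low counts, edgeR called 130 genes higher and 115 lower at 24 h, 20 higher and 46 lower at 0.5 h, and 29 higher and 44 lower between 24 h and 0.5 h. Of the list it then called 1 higher at 24 h (STC2, 0.52, edgeR adjusted p = 0.0116) and 1 lower between 24 h and 0.5 h (PHGDH, -0.5, edgeR adjusted p = 0.0229), and MTHFD2 at 0.5 h became 0.01. The cause was not tested.

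The labels do not say that replicate numbers pair samples, and with 2 numbers they were treated as names. The difference of replicate 1 minus replicate 2 correlated between groups over 23133 genes at 0.312, 0.328 and 0.293. With the replicate block, edgeR called 301 genes higher and 384 lower at 24 h, 15 higher and 42 lower at 0.5 h, and 116 higher and 296 lower between 24 h and 0.5 h. List genes called at 24 h were then 2 higher, STC2 (0.52, edgeR adjusted p = 0.00207) and DDIT4 (0.33, 0.0295), and 5 lower, SLC38A2 (-0.41, 0.0105), SLC7A1 (-0.4, 0.0142), AARS1 (-0.35, 0.0241), WARS1 (-0.46, 0.0428) and EIF4EBP1 (-0.29, 0.0477), against 1.3% and 1.66% of all genes. Between 24 h and 0.5 h they were 1 higher (STC2) and 4 lower (EIF4EBP1, PHGDH, SLC3A2 and WARS1), at 0.5 h there were 0, and MTHFD2 at 0.5 h was 0.01.

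Leaving out each library in turn called 0 list genes. Genes called at 24 h ran from 0 to 1 higher and 8 to 16 lower, and at 0.5 h from 9 to 19 lower. At 24 h the log2 fold change ran from -0.22 to 0.24 for ATF4, -0.32 to 0.22 for CHAC1, -0.67 to 0.06 for MTHFD2, -0.79 to 0.12 for PSAT1 and -0.24 to 0.09 for NARS1. At 0.5 h it ran from -0.24 to 0.39 for ATF4, -0.11 to 0.31 for STC2, -0.07 to 0.23 for DDIT4, -0.1 to 0.26 for EIF4EBP1, -0.04 to 0.62 for PPP1R15A, -0.08 to 0.46 for CHAC1, -0.21 to 0.03 for CTH, -0.33 to 0.39 for MTHFD2 and -0.54 to 0.37 for PSAT1. It ran from -0.31 to 0.12 for SLC7A1, -0.04 to 0.2 for SLC3A2, -0.96 to 0.23 for SLC7A11, -0.03 to 0.07 for WARS1, -0.21 to 0.03 for AARS1 and -0.3 to 0.02 for MARS1.

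The longer form TGATGCAAT was in 2.78% of list windows, that of TARS1, and 0.293% of all. In the 250 bases before the start alone, TGATGNAA was in 25% and 3.89%. With 54 to 3364 counts per gene and 2 libraries a group, the spread between libraries limits these results.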
